A study of Homo sapiens with 18 samples.

Results

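Erythropoietin and stem cell factor signalling was followed through 10 genes, EPOR, KIT, RHEX, JAK2, STAT5A, STAT5B, CISH, SOCS2, PIM1 and BCL2L1. They were chosen by name for their roles in the 2 pathways, with earlier results of these data known. All 10 were found by symbol among the 13358 genes of the deposited table. The cells were HUDEP1, an immortalised human erythroid progenitor line, in 3 clones. Clones 1KI9 and 1D5 expressed GATA1s, the short isoform of the erythroid transcription factor GATA1, and clone FL expressed full-length GATA1. Each clone was sampled at day 4 of differentiation and in expansion, with 3 libraries per group and 18 in all. Day-4 medium was IMDM with 2% FBS, 3% human AB serum, 10 µg/mL insulin, 3 U/mL heparin and 1 mg/mL holo-transferrin. Expansion medium was SFEM II with 1 µM dexamethasone, which is not listed for day 4. Stem cell factor at 50 ng/mL, erythropoietin at 3 U/mL and doxycycline at 1 µg/mL were in both media, so every group received both ligands at the same stated amounts. With 1 full-length clone, genotype and clone cannot be told apart. Nothing states that replicates were separate cultures, so p-values measure only the spread between these libraries, which may be technical.

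Erythropoietin binds its receptor EPOR on erythroid progenitors and activates the receptor-bound kinase JAK2, which phosphorylates STAT5A and STAT5B. The STAT5 proteins then enter the nucleus and switch on genes that include the feedback inhibitors CISH and SOCS2, the survival kinase PIM1 and the anti-apoptotic BCL2L1. Stem cell factor acts through the receptor tyrosine kinase KIT, which sustains proliferation of early progenitors and is normally lost as red cell precursors mature, while erythropoietin supports their later survival. RHEX is an adaptor that links the erythropoietin receptor to downstream kinases in human erythroid cells.

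The promoters of CISH, EPOR and RHEX are shown because they held the letters searched for, in capitals, and because CISH is the classical STAT5 target while EPOR and RHEX are the genes of the set with the largest decreases in the GATA1s clones at day 4 and in expansion. Sequences are from RefSeq (GRCh38.p14), run 5′ to 3′ on the gene's strand, and cover 250 bases before to 50 after an annotated start, at chr3:50611725-50612024 (minus strand) for CISH, chr19:11384265-11384564 (minus) for EPOR and chr1:206083345-206083644 (plus) for RHEX. Capitals mark TTCNNNGAA, the spacing of letters STAT5 is known to prefer, in CISH, and, in EPOR and RHEX, the GATA letters on either strand, GATA after an A or a T and before an A or a G.
CISH: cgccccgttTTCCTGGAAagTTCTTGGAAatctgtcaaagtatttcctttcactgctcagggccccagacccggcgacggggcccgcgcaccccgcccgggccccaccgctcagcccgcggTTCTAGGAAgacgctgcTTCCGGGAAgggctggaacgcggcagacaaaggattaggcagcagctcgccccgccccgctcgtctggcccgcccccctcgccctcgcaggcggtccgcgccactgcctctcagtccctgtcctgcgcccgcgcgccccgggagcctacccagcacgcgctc
EPOR: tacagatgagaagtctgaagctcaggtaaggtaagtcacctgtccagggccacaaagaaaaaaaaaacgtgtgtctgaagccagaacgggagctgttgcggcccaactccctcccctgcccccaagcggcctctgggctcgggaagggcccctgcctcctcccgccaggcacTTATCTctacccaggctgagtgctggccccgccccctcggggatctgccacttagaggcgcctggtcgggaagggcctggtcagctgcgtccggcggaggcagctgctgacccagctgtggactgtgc
RHEX: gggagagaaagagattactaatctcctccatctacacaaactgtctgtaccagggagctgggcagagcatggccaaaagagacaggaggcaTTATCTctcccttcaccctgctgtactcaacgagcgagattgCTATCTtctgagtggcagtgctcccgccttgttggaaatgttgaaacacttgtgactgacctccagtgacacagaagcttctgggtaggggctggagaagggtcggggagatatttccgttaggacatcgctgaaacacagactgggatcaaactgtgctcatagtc
CISH held 4 matches to TTCNNNGAA, which reads the same on both strands, against at least 1 in 7.66% and at least 4 in 7 of 35116 RefSeq promoters of this length. EPOR held 1 match to the GATA letters and RHEX 2, against at least 1 in 25.0% and at least 2 in 6.08% of promoters. The table gave 15 promoters for 9 of the 10 genes. Outside those shown, the promoters of KIT, PIM1, JAK2, STAT5A, STAT5B and BCL2L1 held neither motif in these windows. No entry was matched for SOCS2. A match describes the letters and no binding was measured. The RHEX start shown lies inside the gene, whose annotated span begins at chr1:206052723. The letters at that beginning were not searched, and which start these cells use was not measured.

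The cells carried the markers of their erythroid label, since all 12 erythroid markers, EPOR among them, averaged at least 1 in every group. Their summed level at day 4 was 70565 to 80042 in 1KI9, 124930 to 142898 in 1D5 and 266186 to 282914 in FL. Globin genes took 12.9 ± 0.44%, 19.8 ± 0.67% and 38.8 ± 0.59% of the summed values of all genes in those groups (SD, n = 3 each). Almost all of the marker sum came from the globin genes HBG2, HBA1 and HBA2, so it is not a measure separate from the globin share. In expansion the globin share was 4.23 ± 0.27%, 5.30 ± 1.33% and 7.30 ± 2.88%, and FL replicate 1 stood apart from the other FL libraries at 10.6%. The GATA1 gene total, which cannot separate the isoforms and so does not check the genotype labels, averaged 925 and 1059 at day 4 and 635 and 651 TPM in expansion in 1KI9 and 1D5, against 231 and 154 in FL. Lymphocyte and stromal markers summed to at most 3.56 in any library. Expansion values are TPM, a share of transcripts corrected for gene length. Day-4 values are TPM-like but had been scaled further by the authors, by a method that is not stated. Depth is unknown for both. Whether lower values come from fewer cells of a type or from less RNA per cell cannot be told apart in bulk RNA.

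At day 4 EPOR, JAK2, STAT5B, CISH, PIM1 and BCL2L1 were lower in both GATA1s clones, and KIT and STAT5A were higher. EPOR stood at 0.28 of its FL mean in 1KI9 and 0.27 in 1D5. SOCS2 and RHEX were not called in both clones. A gene was called when both clones passed against FL in the same direction, at a limma adjusted p below 0.05 on log2(value + 1). On that rule 8 of the 10 genes were called, 2 higher and 6 lower. Among all 11083 genes tested at day 4, 65.5% were called, 51.2% as higher and 14.3% as lower, so a high share of calls was common to the whole table. With median-of-ratios scaling the called genes of the whole table were 2928 higher and 3438 lower, so their balance of directions depends on the scaling. The members' median log2 difference was -0.50 as deposited, against 0.29 for all genes tested. The smaller shares of globin RNA in the GATA1s clones moved with these differences, and their part in them was not tested.

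**Figure D1:**
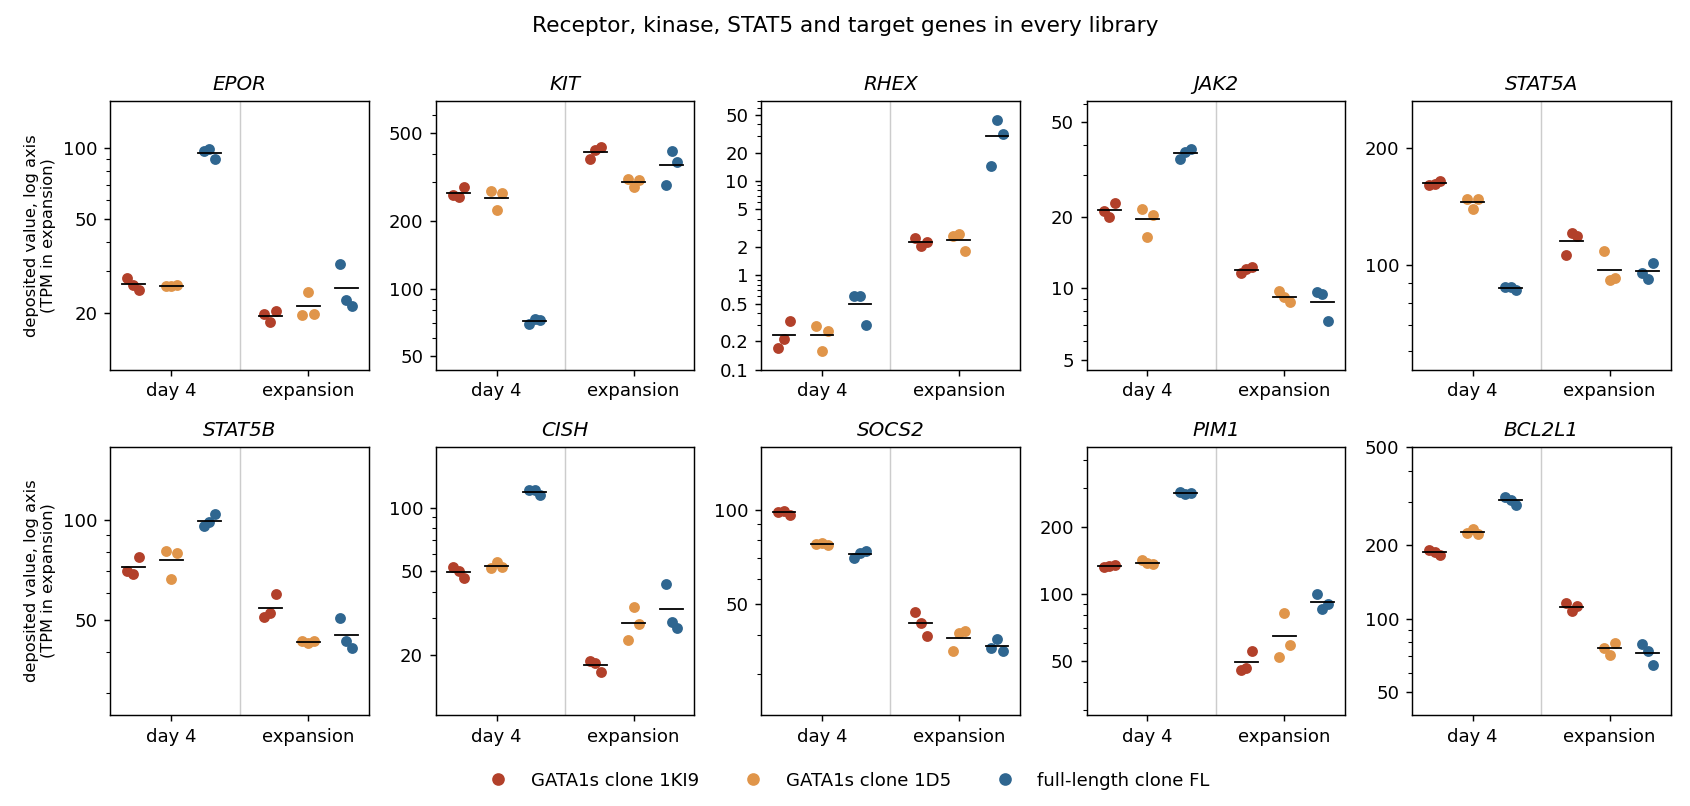
Deposited value of each gene in every library, on a log axis (TPM in expansion, TPM-like at day 4), with points for the 3 libraries of a group and a black line for the group mean. At day 4 the 3 FL points of EPOR (89.4 to 98.7) lie above all 6 GATA1s points and those of KIT (69.1 to 73.1) lie below them, while in expansion RHEX is the gene with the widest gap between FL (14.6 to 44.0 TPM) and the GATA1s clones (1.81 to 2.77 TPM).

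EPOR (ENSG00000187266.14, chr19:11377205-11384342, minus strand) is the receptor for erythropoietin. At day 4 it stood at 28.2, 26.2 and 24.9 in the 1KI9 libraries, 25.9, 26.1 and 26.4 in 1D5, and 97.4, 98.7 and 89.4 in FL. Every GATA1s library was below every FL library, and the GATA1s clones lay close to one another. The FL mean was 3.60-fold that of 1KI9 and 3.64-fold that of 1D5. The log2 difference was -1.81 ± 0.11 in 1KI9 and -1.82 ± 0.11 in 1D5 (SE; limma adjusted p = 1.15e-10 and 1.54e-10). In rank among the fitted genes by mean level, EPOR was at the 66.6th percentile in 1KI9 and the 67.0th in 1D5 at day 4, and at the 92.4th in FL. EPOR overlaps the protein-coding gene RGL3 on the same strand, so its values are uncertain to that extent.

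KIT (ENSG00000157404.15, chr4:54657918-54740715, plus strand) is the receptor for stem cell factor. Its day-4 values were 264, 257 and 285 in 1KI9, 273, 224 and 269 in 1D5, and 69.1, 73.1 and 72.4 in FL. All 6 GATA1s libraries were above the FL libraries, 3.75-fold in 1KI9 and 3.58-fold in 1D5 by group means. The log2 difference was 1.89 ± 0.10 in 1KI9 and 1.82 ± 0.10 in 1D5 (limma adjusted p = 1.10e-11 and 2.77e-11). KIT also marks mast cells. Of 11 mast cell, basophil and eosinophil markers, 9 were in the table, and their day-4 sum ranged over 436 to 466 in 1KI9, 294 to 307 in 1D5 and 429 to 450 in FL. The tryptase gene TPSB2 averaged 268, 147 and 40.6, the histamine-synthesising HDC 15.8, 5.87 and 0.19, and the eosinophil granule gene PRG2 30.3, 16.6 and 309 in those groups, while MS4A2 and EPX were listed at 0 in all 3. Monocyte and neutrophil markers, 6 of 12 in the table, summed to 396 to 418 in 1KI9, 329 to 351 in 1D5 and 43.5 to 47.1 in FL, almost all of it from the lysosomal gene CD68 (379, 329 and 42.2). Megakaryocyte markers, 4 of 8 in the table, summed to 16.2 to 17.7 in 1KI9, 19.98 to 23.3 in 1D5 and 4.02 to 4.46 in FL, mostly from the integrin gene ITGB3 (14.7, 20.8 and 3.45). Their part in the KIT difference was not tested.

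The balance of the receptors followed from both. The ratio of KIT to EPOR within a library, on the per-length scale of the values, was 9.34 to 11.4 in 1KI9 and 8.61 to 10.5 in 1D5 at day 4, against 0.71 to 0.81 in FL. FL at day 4 was therefore the group in which EPOR exceeded KIT in every library. In expansion the ratio was 19.3 to 22.7 in 1KI9, 11.6 to 15.8 in 1D5 and 8.999 to 18.2 in FL, and the ranges of 1D5 and FL overlapped. A ratio taken within a library does not change when all its values are scaled by 1 common factor. Whether the unstated day-4 scaling was of that kind is not known.

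JAK2 (ENSG00000096968.13, chr9:4984390-5128183, plus strand), the kinase bound to the erythropoietin receptor, was lower at day 4. It stood at 21.2, 20.1 and 22.9 in 1KI9, 21.7, 16.5 and 20.4 in 1D5, and 35.2, 37.4 and 38.5 in FL, with no overlap. The log2 difference was -0.77 ± 0.10 in 1KI9 and -0.90 ± 0.10 in 1D5 (limma adjusted p = 1.87e-06 and 3.46e-07). JAK2 overlaps several annotated pseudogenes and, on the opposite strand, INSL6, and how the authors' counting treated strand is not stated.

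The 2 STAT5 genes, neighbours on chromosome 17 that encode near-identical proteins, moved in opposite directions at day 4. STAT5A (ENSG00000126561.16, chr17:42287547-42311943, plus strand) stood at 160, 161 and 164 in 1KI9, 147, 139 and 148 in 1D5, and 87.8, 87.7 and 86.1 in FL. STAT5B (ENSG00000173757.9, chr17:42199168-42276707, minus strand) stood at 69.8, 68.8 and 77.1 in 1KI9, 80.3, 66.3 and 79.3 in 1D5, and 95.6, 98.6 and 104 in FL. All GATA1s libraries were above FL for STAT5A and below it for STAT5B. The log2 difference of STAT5A was 0.89 ± 0.06 in 1KI9 and 0.72 ± 0.06 in 1D5 (limma adjusted p = 9.07e-10 and 1.95e-08), and that of STAT5B was -0.46 ± 0.08 and -0.40 ± 0.08 (adjusted p = 7.43e-05 and 3.68e-04). Within a library the ratio of STAT5A to STAT5B at day 4 was 2.13 to 2.35 in 1KI9, 1.83 to 2.10 in 1D5 and 0.83 to 0.92 in FL. In expansion it was 1.99 to 2.31, 2.14 to 2.50 and 1.90 to 2.46, so the clones differed in this ratio at day 4 and overlapped in expansion. The decrease of STAT5B was not called when every library was rescaled to the same sum (-0.14 for the mean of the clones, adjusted p = 0.133). RSEM divides reads between such similar genes, which makes the split between them uncertain.

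Of the genes that STAT5 switches on, 3 were lower at day 4 and 1 did not pass in both clones. CISH (ENSG00000114737.15, chr3:50606490-50611831, minus strand), a feedback inhibitor that binds the receptor, stood at 52.2, 50.1 and 46.6 in 1KI9, 51.6, 55.5 and 52.1 in 1D5, and 121, 121 and 114 in FL (log2 difference -1.25 ± 0.13 and -1.15 ± 0.13; limma adjusted p = 1.63e-07 and 5.89e-07). PIM1 (ENSG00000137193.14, chr6:37170203-37175426, plus strand), a serine/threonine survival kinase, stood at 132, 133 and 134 in 1KI9, 141, 137 and 136 in 1D5, and 287, 280.04 and 283 in FL (-1.08 ± 0.11 and -1.03 ± 0.11; adjusted p = 1.03e-07 and 2.68e-07). No GATA1s library reached the FL range for either gene, and the FL mean was 2.05-fold to 2.40-fold that of a GATA1s clone.

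BCL2L1 (ENSG00000171552.13, chr20:31664452-31723989, minus strand) encodes the anti-apoptotic protein BCL-XL. At day 4 it stood at 190, 187 and 181 in 1KI9, 222, 232 and 222 in 1D5, and 315, 305 and 291 in FL. The clones formed separate tiers with 1KI9 lowest and FL highest (log2 difference against FL -0.70 ± 0.06 in 1KI9 and -0.43 ± 0.06 in 1D5; limma adjusted p = 2.02e-08 and 1.26e-05). SOCS2 (ENSG00000120833.14, chr12:93569814-93583487, plus strand), the other feedback inhibitor of the set, stood at 98.4, 99.2 and 96.3 in 1KI9, 77.5, 78.3 and 77.4 in 1D5, and 70.2, 72.8 and 73.6 in FL. It passed in 1KI9 (0.44 ± 0.06, adjusted p = 8.13e-06) and not in 1D5 (0.11 ± 0.06, adjusted p = 0.153), although the 1D5 libraries also lay above FL. With libraries at the same sum both clones passed (0.77 in 1KI9 and 0.35 in 1D5), as 1D5 did with the day-4 libraries fitted alone (adjusted p = 0.0108). With median-of-ratios scaling 1KI9 did not pass (0.05) and 1D5 was lower (-0.23, adjusted p = 0.0197), so no direction is given for SOCS2 at day 4. CISH overlaps MAPKAPK3 on the opposite strand, and BCL2L1 and SOCS2 overlap antisense genes, so their values are uncertain to that extent.

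RHEX (ENSG00000263961.8, chr1:206052723-206102459, plus strand) was near the bottom of the measured range at day 4, at 0.17, 0.21 and 0.33 in 1KI9, 0.29, 0.16 and 0.26 in 1D5, and 0.60, 0.61 and 0.30 in FL. The 1KI9 libraries overlapped FL, the 1D5 libraries lay just under the lowest FL library, and the difference was not called (log2 difference of the mean of the clones -0.28 ± 0.21, limma adjusted p = 0.234). With a pseudocount of 0.1 it was called (-0.82, adjusted p = 0.0133), as it was in both clones with the day-4 libraries fitted alone (-0.28 each, adjusted p = 0.0172 in 1KI9 and 0.0187 in 1D5).

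**Figure D2:**
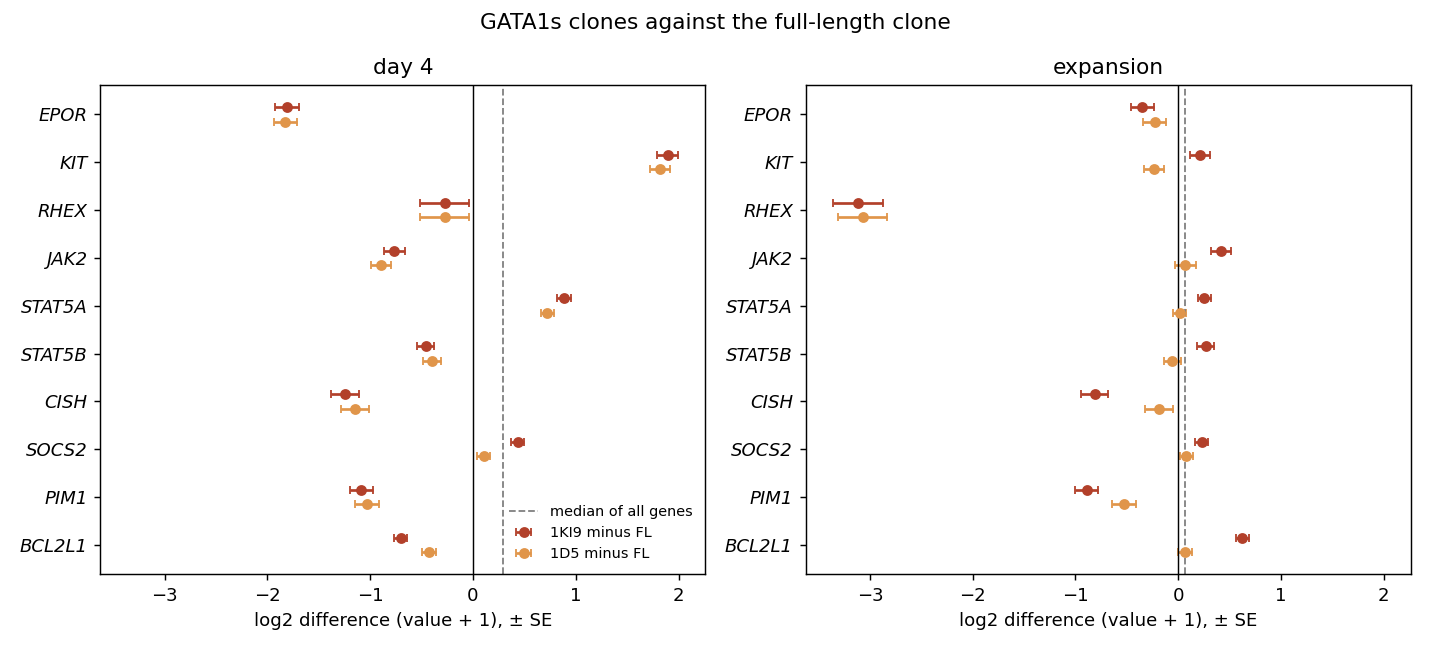
Log2 difference on log2(value + 1) of each GATA1s clone from FL, at day 4 (left) and in expansion (right), with points for the estimate, bars for ± SE and a dashed line at the median of all genes tested (0.29 at day 4 and 0.06 in expansion). At day 4 EPOR and KIT lie farthest from 0 on opposite sides, and in expansion RHEX does, at -3.12 in 1KI9 and -3.07 in 1D5.

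How the libraries are scaled shifts the day-4 differences of all members but RHEX, which is near 0, by close to the same amount. The median log2 difference of all genes at day 4 was 0.29 with the values as deposited, -0.01 with median-of-ratios scaling and 0.55 with each library rescaled to the same sum. The split of called genes moved accordingly, with 5670 higher and 1585 lower as deposited, 2928 and 3438 with median-of-ratios scaling, and 7650 and 879 with libraries at the same sum. Relative to that median, EPOR was at -2.11, -2.16 and -2.08 under the 3 scalings in that order, KIT at 1.56, 1.51 and 1.595, JAK2 at -1.13, -1.17 and -1.10, and STAT5A at 0.51, 0.46 and 0.54. STAT5B was at -0.72, -0.77 and -0.69, CISH at -1.49, -1.54 and -1.46, PIM1 at -1.35, -1.40 and -1.32, and BCL2L1 at -0.86, -0.91 and -0.82. SOCS2 was within 0.07 of the median under each of the 3, at -0.02, -0.07 and 0.01, and its difference from FL changed sign with the scaling. RHEX was at -0.57, -0.40 and -0.76. The 8 called genes kept their direction from FL under both alternative scalings, with STAT5B short of the threshold with libraries at the same sum.

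**Figure D3:**
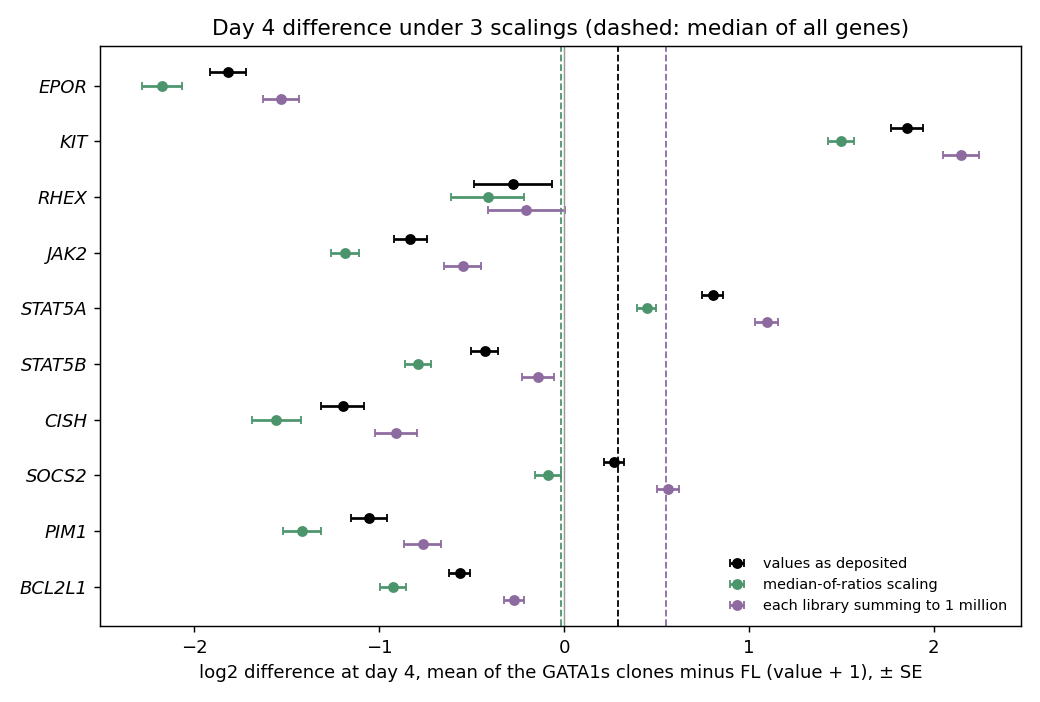
Log2 difference at day 4, mean of the GATA1s clones minus FL, for each gene with the values as deposited, with median-of-ratios scaling and with each library rescaled to the same sum (bars, ± SE; dashed lines, median of all genes under each scaling). The points of each gene but RHEX shift with the dashed lines, and SOCS2 lies close to them.

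In expansion the differences were fewer and smaller, apart from RHEX. PIM1 and RHEX were lower in both GATA1s clones and no member was higher, so 2 of 10 were called. Among 11042 genes tested, 26.4% were called, 17.5% as higher and 8.98% as lower, and the share of the 10 genes called was near that background. Median-of-ratios scaling gave 1631 higher and 1711 lower over all genes, against 1927 and 992 as deposited. The median log2 difference of the members was 0.05, against 0.06 for all genes.

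RHEX stood at 2.47, 2.04 and 2.28 TPM in 1KI9, 2.59, 2.77 and 1.81 TPM in 1D5, and 14.6, 44.0 and 31.3 TPM in FL. Every GATA1s library was below the lowest FL library, and the FL libraries were more spread than those of either GATA1s clone. The FL mean was 13.2-fold that of 1KI9 and 12.5-fold that of 1D5, and the log2 difference was -3.12 ± 0.24 in 1KI9 and -3.07 ± 0.24 in 1D5 (limma adjusted p = 3.90e-09 and 1.89e-08). FL replicate 1, the library with the highest globin share, had the lowest RHEX of the FL libraries. Without it the mean of the clones was -3.52 from FL (adjusted p = 1.28e-12). RHEX overlaps the pseudogene BX571818.1 on the same strand.

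PIM1 in expansion stood at 45.3, 46.5 and 55.2 TPM in 1KI9, 51.9, 82.1 and 59.0 TPM in 1D5, and 99.8, 85.5 and 89.6 TPM in FL. All GATA1s libraries were below FL, with 1D5 replicate 2 closest to it (log2 difference -0.89 ± 0.11 in 1KI9 and -0.53 ± 0.11 in 1D5; limma adjusted p = 2.33e-06 and 1.64e-03). CISH stood at 18.8, 18.5 and 16.7 TPM in 1KI9, 23.7, 34.0 and 28.1 TPM in 1D5, and 43.5, 28.9 and 26.9 TPM in FL. It was lower in 1KI9 (-0.81 ± 0.13, adjusted p = 4.91e-05), and the 1D5 libraries overlapped FL (-0.19 ± 0.13, adjusted p = 0.319).

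EPOR stood at 19.7, 18.4 and 20.3 TPM in 1KI9, 19.7, 24.6 and 19.8 TPM in 1D5, and 32.3, 22.8 and 21.4 TPM in FL. It was lower in 1KI9 (-0.35 ± 0.11, limma adjusted p = 0.0135) and did not pass in 1D5 (-0.23 ± 0.11, adjusted p = 0.141). FL replicate 1 set the upper end here too, and without it the difference of the mean of the clones was -0.11 (adjusted p = 0.236), against -0.29 (adjusted p = 0.0201) with all libraries. The call in 1KI9 was lost without FL replicate 1 (-0.17), without 1KI9 replicate 2 (-0.31) and with the expansion libraries fitted alone (adjusted p = 0.0836), and with median-of-ratios scaling the difference was -0.55. Leaving out 1D5 replicate 2 or FL replicate 3 brought EPOR past the threshold in both clones (-0.34 and -0.40 for the mean of the clones).

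KIT stood at 381, 417 and 434 TPM in 1KI9, 310, 285 and 308 TPM in 1D5, and 291, 414 and 369 TPM in FL. Neither clone passed the test against FL, and the estimates had opposite signs (0.21 ± 0.10 in 1KI9 and -0.23 ± 0.10 in 1D5; limma adjusted p = 0.0776 and 0.0826). In 1KI9 it passed without FL replicate 2 (0.32), and in 1D5 without FL replicate 1 (-0.38) and with median-of-ratios scaling (-0.27). KIT was among the most abundant genes in expansion, at the 97.8th, 97.1st and 97.7th percentile of level in 1KI9, 1D5 and FL.

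JAK2, STAT5A, STAT5B, SOCS2 and BCL2L1 passed as higher than FL in 1KI9 and did not pass in 1D5. Of all genes in expansion, 33.4% were higher in 1KI9 than in 1D5 as deposited and 7.16% were lower. The share of all genes higher than FL, or without overlap with it, in 1KI9 alone was not counted. These calls therefore do not set the named genes apart. JAK2 stood at 11.6, 12.04 and 12.3 TPM in 1KI9, 9.72, 9.18 and 8.72 TPM in 1D5, and 9.69, 9.44 and 7.25 TPM in FL. BCL2L1 stood at 116, 108 and 112 TPM in 1KI9, 76.1, 71.1 and 79.7 TPM in 1D5, and 79.0, 73.9 and 64.4 TPM in FL. The 1KI9 libraries stood above both other clones for JAK2 and BCL2L1, and 1D5 overlapped FL. STAT5A stood at 106, 120.5 and 119 TPM in 1KI9, 108, 91.2 and 92.5 TPM in 1D5, and 95.5, 91.9 and 101 TPM in FL. STAT5B stood at 50.8, 52.3 and 59.7 TPM in 1KI9, 43.2, 42.6 and 43.0 TPM in 1D5, and 50.4, 43.2 and 41.2 TPM in FL. SOCS2 stood at 47.1, 43.6 and 39.5 TPM in 1KI9, 35.4, 40.5 and 41.0 TPM in 1D5, and 36.2, 38.7 and 35.5 TPM in FL. For these genes too every 1KI9 library was above every FL library, by little for STAT5B and SOCS2, and the 1D5 and FL libraries overlapped. The log2 difference of 1KI9 from FL was 0.42 ± 0.10 for JAK2, 0.62 ± 0.06 for BCL2L1, 0.25 ± 0.06 for STAT5A, 0.27 ± 0.08 for STAT5B and 0.23 ± 0.06 for SOCS2 (limma adjusted p = 1.72e-03, 1.81e-07, 2.64e-03, 0.0104 and 5.31e-03). With median-of-ratios scaling JAK2 (0.22, adjusted p = 0.0412) and BCL2L1 (0.41, adjusted p = 2.77e-04) still passed, while STAT5A (0.04), STAT5B (0.06) and SOCS2 (0.02) did not. The call of STAT5B was also lost without 1KI9 replicate 3 (0.20) or FL replicate 3 (0.21).

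The difference between the GATA1s clones and FL therefore depended on the condition, and this was tested by the interaction, the difference of the mean of the clones from FL at day 4 minus that in expansion. It passed for 9 of the 10 genes, 3 higher at day 4 relative to expansion (STAT5A, KIT and RHEX) and 6 lower (EPOR, JAK2, STAT5B, CISH, PIM1 and BCL2L1). Among 11015 genes, 65.1% passed, 45.4% as higher and 19.7% as lower. The split over all genes was 4996 higher and 2174 lower as deposited, 3415 and 3371 with median-of-ratios scaling, and 7120 and 1287 with libraries at the same sum. For KIT the difference was 1.86 at day 4 and -0.01 in expansion (interaction 1.87 ± 0.12, limma adjusted p = 1.19e-09). For EPOR it was -1.82 and -0.29 (-1.53 ± 0.14, adjusted p = 5.98e-08), and for JAK2 it was -0.83 and 0.24 (-1.07 ± 0.12, adjusted p = 8.31e-07). Without FL expansion replicate 3 the expansion difference of JAK2 was 0.12 (adjusted p = 0.251). In expansion 1KI9 and 1D5 were at 0.21 and -0.23 for KIT and at 0.42 and 0.07 for JAK2, so these means join unlike clones.

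For BCL2L1 the mean of the clones changed sign, at -0.56 from FL at day 4 and 0.34 in expansion (interaction -0.91 ± 0.08, limma adjusted p = 3.45e-08). In expansion BCL2L1 was at 0.62 in 1KI9 and 0.06 in 1D5, which overlapped FL, so the change of sign rests on 1KI9. For RHEX the difference was -0.28 at day 4 and -3.09 in expansion (2.82 ± 0.30, adjusted p = 3.00e-07), where the small day-4 difference is measured at values under 1. For PIM1 the difference was -1.06 at day 4 and -0.71 in expansion, and its interaction of -0.35 ± 0.14 (adjusted p = 0.0349) was the weakest call. It was lost when each library was rescaled to the same sum (-0.06, adjusted p = 0.715) and on leaving out any FL day-4 library (-0.34 to -0.36), FL expansion replicate 2 or 3 (-0.30 and -0.33) or 1KI9 expansion replicate 3 (-0.30). The interaction of STAT5B (-0.53 ± 0.10, adjusted p = 1.98e-04) was also lost with libraries at the same sum (-0.25, adjusted p = 0.0715), where that of SOCS2 was called (0.40), against 0.12 (adjusted p = 0.204) as deposited.

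More of the 10 genes differed between the 2 GATA1s clones in expansion than at day 4, as did more of all genes. At day 4, 2 of 10 genes were called between 1KI9 and 1D5, against 19.2% of all genes, 12.5% as higher in 1KI9 and 6.69% as lower (1381 and 742 genes, against 1150 and 1119 with median-of-ratios scaling and 2690 and 476 with libraries at the same sum). SOCS2 was higher in 1KI9 (log2 difference 0.33 ± 0.06, limma adjusted p = 1.44e-03) and BCL2L1 was lower (-0.27 ± 0.06, adjusted p = 6.03e-03). In expansion 7 of 10 were called, against 40.6% of all genes, 33.4% as higher and 7.16% as lower. JAK2, STAT5A, STAT5B, KIT and BCL2L1 were higher in 1KI9 (0.24 to 0.56), and CISH and PIM1 were lower (-0.63 and -0.36). With median-of-ratios scaling, under which the median of all genes in this comparison was -0.05 and not 0.11, 2132 genes were higher and 2854 lower, against 3690 and 791 as deposited. Then 4 members were called, KIT and BCL2L1 as higher and CISH and PIM1 as lower. BCL2L1 thus stood higher in 1KI9 than in 1D5 in expansion and lower at day 4. In expansion CD68 averaged 152 TPM in 1KI9 and 32.5 TPM in 1D5, against 4.42 TPM in FL. TPSB2 averaged 69.02 and 5.77 TPM, against 2.71 TPM, and ITGB3 6.96 and 1.61 TPM, against 0.28 TPM. Of the list that holds TPSB2, TPSAB1, FCER1A and HDC also averaged lowest in FL. PRG2 (62.1 and 81.5 TPM, against 674 TPM), HPGDS (6.15 and 0.18 TPM, against 9.26 TPM) and GATA2 (109 and 131 TPM, against 145 TPM) averaged highest in FL. For monocytes and neutrophils the summed markers in expansion were 186 to 233 TPM in 1KI9, 41.3 to 53.6 TPM in 1D5 and 8.20 to 38.8 TPM in FL. For mast cells, basophils and eosinophils they were 246 to 281 TPM, 207 to 241 TPM and 659 to 1034 TPM, so FL was highest. For megakaryocytes they were 8.40 to 11.5 TPM, 1.54 to 3.05 TPM and 0.31 to 0.56 TPM. Their part in the differences between the clones was not tested.

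The call of PIM1 between the clones in expansion (limma adjusted p = 0.016) was lost without 1D5 replicate 2 (-0.18, adjusted p = 0.0999), 1KI9 replicate 1 (-0.31) or 1KI9 replicate 2 (-0.33), so it rested on a few libraries.

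Within each clone, day-4 values were then set against expansion values. The 2 parts of the table were scaled separately and differ in medium and time, so these differences also compare those scalings. EPOR, JAK2, STAT5B, CISH, SOCS2, PIM1 and BCL2L1 were higher at day 4 in all 3 clones, and KIT and RHEX were lower. In 1KI9 10 of 10 genes were called, 8 higher and 2 lower, against 74.4% of all genes, 22.2% higher and 52.2% lower. In 1D5 10 were called, 8 higher and 2 lower, against 78.9% of all genes, 31.9% higher and 47.0% lower. In FL 9 were called, 7 higher and 2 lower, against 83.7% of all genes, 26.5% higher and 57.2% lower. The median of all genes was -0.25, -0.15 and -0.38 in 1KI9, 1D5 and FL, and the median of the members was 0.61, 0.84 and 1.38. Over all genes, median-of-ratios scaling gave 4133 higher and 3923 lower in 1KI9, 4368 and 4384 in 1D5, and 4612 and 4437 in FL, against 2445 and 5752, 3519 and 5176, and 2919 and 6303 as deposited. With libraries at the same sum it was 3225 and 4584 in 1KI9.

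The size of the change differed between clones for most members. EPOR at day 4 was 1.36-fold its expansion mean in 1KI9, 1.22-fold in 1D5 and 3.74-fold in FL. KIT at day 4 was 0.65-fold its expansion mean in 1KI9, 0.85-fold in 1D5 and 0.20-fold in FL, so that FL at day 4 held the lowest KIT values of all groups. JAK2 was 1.78-fold, 2.12-fold and 4.21-fold its expansion mean in 1KI9, 1D5 and FL. RHEX fell in all 3 clones, to values at or below 0.61 (log2 difference -1.40 ± 0.24 in 1KI9, -1.44 ± 0.24 in 1D5 and -4.24 ± 0.24 in FL). The interaction reported above is the test of these differences between the GATA1s clones and FL.

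SOCS2 was the member with the smallest spread of day-4 change over the 3 clones, at 2.26-fold its expansion mean in 1KI9, 2.00-fold in 1D5 and 1.96-fold in FL. STAT5A was 1.41-fold and 1.49-fold its expansion mean in 1KI9 and 1D5 (log2 difference 0.49 ± 0.06 and 0.57 ± 0.06; limma adjusted p = 1.85e-06 and 2.09e-07). In FL its log2 difference was -0.14 ± 0.06 (adjusted p = 0.0541), which became 0.33 (adjusted p = 6.79e-05) with median-of-ratios scaling and -0.30 (adjusted p = 7.34e-04) with libraries at the same sum, so no direction is given for STAT5A in FL.

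**Figure D4:**
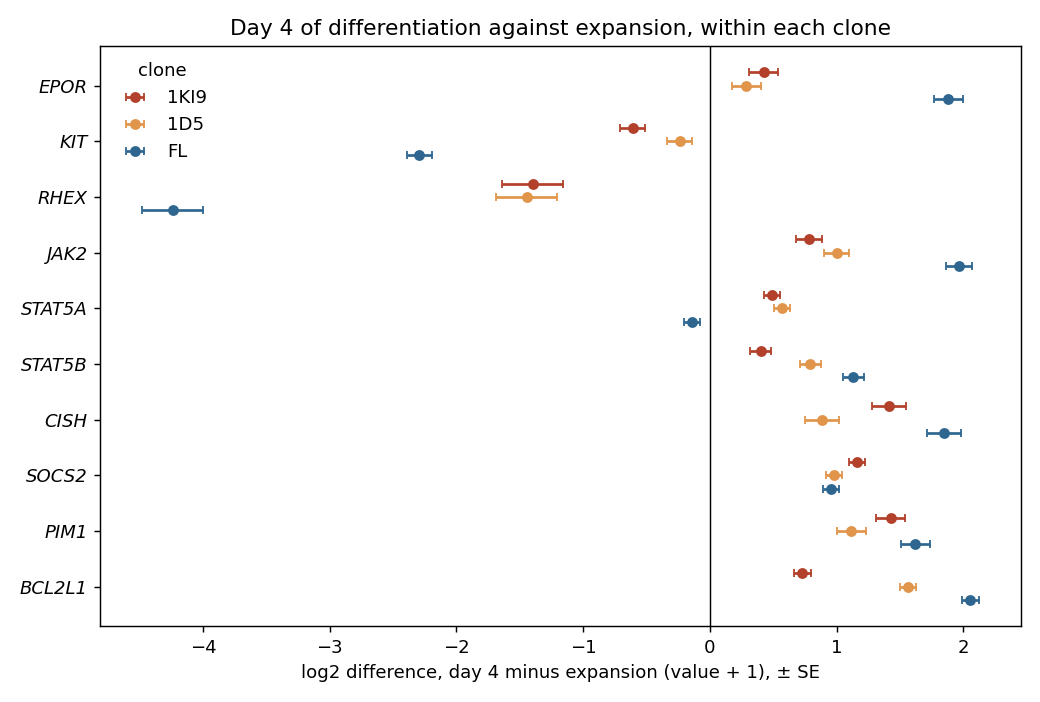
Log2 difference of day 4 from expansion within each clone (points, ± SE) on log2(value + 1), for each gene. EPOR, JAK2 and KIT show the widest gaps between FL (1.88, 1.97 and -2.29) and the mean of the GATA1s clones among the genes measured above 1 in all groups, and SOCS2 shows little gap.

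In 1D5 the changes of EPOR and KIT were small. The log2 difference was 0.29 ± 0.11 for EPOR (limma adjusted p = 0.0288) and -0.24 ± 0.10 for KIT (adjusted p = 0.0356). The KIT call was lost with either alternative scaling (-0.07 and -0.16) and without 1D5 expansion replicate 1 or 3 (-0.22 each) or 1D5 day-4 replicate 2 (-0.15). The EPOR call was lost without expansion replicate 1 or 3 (0.23 and 0.24) or any day-4 replicate of 1D5 (0.28 to 0.29).

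Across the 18 libraries, some members moved closely together, given here only as a description since libraries of a group share clone and condition. JAK2 and STAT5B had a Pearson r of 0.98 on log2(value + 1), and so did PIM1 and CISH. The ratio of PIM1 to CISH stayed between 2.10 and 3.34 in all libraries while both genes varied several-fold. The genes most like EPOR over the 18 libraries were TSTA3 (r = 0.989), which acts in GDP-fucose synthesis, SLC22A4 (0.987), an organic cation transporter, and FECH (0.985), the last enzyme of heme synthesis. SLC22A4 averaged 25.2 in FL at day 4 and 0.11 to 1.02 in every other group, so its r rests on FL at day 4. FECH averaged 211 and 233 at day 4 in 1KI9 and 1D5, against 610.1 in FL. Those most like KIT were BTN2A1, MAPK6 and ZFP91 (r = 0.994, 0.993 and 0.992), and those most like RHEX were EHD4, RHOU and ICK (0.984, 0.983 and 0.979), although EHD4 and RHOU averaged under 1 in all 3 clones at day 4.

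The wider pathway was described through 5 lists. Of 15 other receptors and ligands, 7 could be tested. At day 4, 3 were higher in both clones and 1 was lower, and in expansion 3 were higher and 2 were lower. All genes tested, against which each list below is set, were higher in 51.2% and lower in 14.3% at day 4, and higher in 17.5% and lower in 8.98% in expansion. No difference between a list and all genes was tested. CSF2RB, VAV1, PTPN6, DOK2 and ERFE, named below, reached the filter level of 1 in at most 1 library of a condition on their low side. They therefore entered the test through the groups where they were high. Their calls against FL are not read as results, and their sizes are given as a description. CSF2RB, the signalling chain common to several cytokine receptors of blood cells, was 3.39 ± 0.16 higher at day 4 and 4.75 ± 0.16 higher in expansion on the log2 scale. The ephrin receptor EPHB4 was also higher (1.21 ± 0.06 and 0.83 ± 0.06), averaging 118 and 110 in 1KI9 and 1D5 at day 4 against 48.6 in FL. The insulin receptor INSR was lower at day 4 (-1.08 ± 0.10). The interleukin-9 receptor IL9R averaged 0.13 and 0.16 TPM in expansion in 1KI9 and 1D5 against 2.68 TPM in FL. It reached 1 in the FL expansion libraries alone and entered the test through them, so its call as lower is not read as a result.

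Of 33 kinases and adaptors, 29 were tested, and 12 were higher and 6 were lower in both clones at day 4, against 11 higher and 0 lower in expansion. Of all genes 51.2% were higher and 14.3% lower at day 4, and 17.5% and 8.98% in expansion. With median-of-ratios scaling the day-4 split was 11 higher and 14 lower, and with libraries at the same sum 17 and 2, so no direction is given for the list at day 4. PIK3R1, the regulatory subunit of PI3 kinase, averaged 39.9 and 75.6 in 1KI9 and 1D5 at day 4 against 9.87 in FL (log2 difference of the mean of the clones 2.37 ± 0.10). STAT3 averaged 148 and 124 against 51.1 (1.39 ± 0.06), and FOXO3, a transcription factor that AKT restrains, averaged 17.98 and 22.6 against 60.5 (-1.54 ± 0.09). In expansion VAV1, a blood-cell exchange factor, was 1.75 ± 0.10 higher, the kinase TEC 1.17 ± 0.09 higher and JAK1 0.89 ± 0.09 higher.

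Of 22 negative regulators, 21 were tested, and 15 were higher and 0 were lower in both clones at day 4, when 51.2% of all genes were higher and 14.3% lower. With median-of-ratios scaling 10 were higher and 3 were lower. In expansion 7 were higher and 0 were lower, against 17.5% and 8.98% of all genes. PTPN6, which encodes the phosphatase SHP-1 that acts on the erythropoietin receptor and KIT, averaged 10.1 and 1.39 in 1KI9 and 1D5 at day 4 against 0.35 in FL, and 17.8 and 2.72 TPM in expansion against 0.38 TPM. It was called as higher in 1KI9 than in 1D5 in both conditions. The phosphatase PTPN1 averaged 22.3 and 21.0 at day 4 against 8.89 in FL (1.19 ± 0.06), the feedback inhibitor SOCS1 averaged 12.7 and 8.08 TPM in expansion against 1.87 TPM (1.96 ± 0.11), and the adaptor DOK2 was higher in both conditions at low values.

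Of 21 STAT5 and erythropoietin responsive genes outside the set, 19 were tested at day 4, with 9 higher and 5 lower, and 18 in expansion, with 7 higher and 5 lower. Of all genes 51.2% were higher and 14.3% lower at day 4, and 17.5% and 8.98% in expansion. With median-of-ratios scaling the day-4 split was 9 and 10, and with libraries at the same sum 10 and 5. ERFE, the erythroid hormone that lowers hepcidin, averaged 0.20 and 0.29 in 1KI9 and 1D5 at day 4 against 21.1 in FL. It entered the test through FL, so its call as lower is not read as a result (-4.16 ± 0.23 at day 4 and -2.25 ± 0.23 in expansion). The transferrin receptor TFRC was lower at day 4, averaging 311 in each GATA1s clone against 1245 in FL (-2.003 ± 0.11). SPRY4, an inhibitor of receptor tyrosine kinase signalling, averaged 7.77 and 6.06 in 1KI9 and 1D5 at day 4 against 0.89 in FL (2.06 ± 0.12). Its FL values there were 1.01, 0.80 and 0.85, so only 1 FL library reached the filter level of 1. Its day-4 call as higher is therefore not read as a result either. The immediate early gene IER3 was higher in expansion (1.47 ± 0.13).

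Of 18 other BCL2 family genes, 15 were tested, with 5 higher and 2 lower in both clones at day 4 and 8 higher and 0 lower in expansion. The shares of all genes were 51.2% and 14.3% at day 4, and 17.5% and 8.98% in expansion. With median-of-ratios scaling the day-4 split was 3 and 8, and with libraries at the same sum 10 and 1, so no direction is given for the list at day 4. MCL1, an anti-apoptotic relative of BCL2L1, averaged 156 and 161 in 1KI9 and 1D5 at day 4 against 83.2 in FL (0.92 ± 0.06). BCL2L1 was lower at day 4. MCL1 was also higher in both clones in expansion (0.59 ± 0.06), where BCL2L1 was not lower. The pro-apoptotic BMF averaged 7.35 and 10.1 against 24.9 (-1.43 ± 0.13), and BAK1 averaged 6.92 and 5.97 against 3.07 (0.87 ± 0.08). In expansion BNIP3L, which acts in mitochondrial clearance, was 0.92 ± 0.05 higher, BBC3 0.81 ± 0.09 higher and BIK 0.67 ± 0.11 higher. These lists were chosen with results of the same libraries known.

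**Figure D5:**
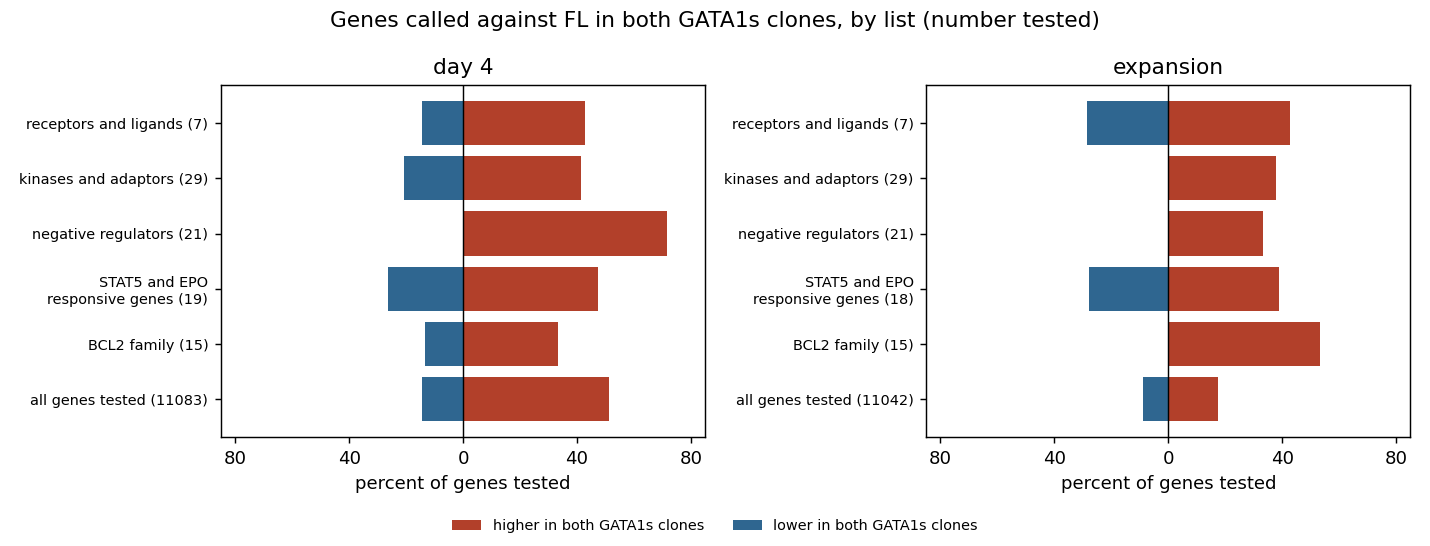
Percent of the tested genes of each list, and of all genes tested, that were called higher (right of 0) or lower (left of 0) in both GATA1s clones than in FL, at day 4 and in expansion, with the number tested in brackets. At day 4 all genes tested were called higher in 51.2% and lower in 14.3%, and the negative regulators had none called lower. The percentages include genes whose calls are not read as results because they were near or under the filter level on their low side.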

How the data were processed

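Poly(A) RNA of 18 HUDEP1 libraries was sequenced with a stranded kit, per the labels. The submitters' processing notes name Trim Galore 0.60, STAR 2.7 and RSEM 1.31, and the build hg38 (GRCh38.p12). Expansion columns were deposited by the authors as TPM, summing to 943734 to 950736 per library. Day-4 columns of the deposited table hold a TPM-like signal with sums of 814583 to 1081251. TPM cannot exceed its fixed total, so these columns carry a further scaling by an unstated method. TPM had been assumed throughout when the tests were designed, and the log-scale test suits both. Such values keep no depth, so depth is unknown and no counting intervals were computed.

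Differences were taken on log2(value + 1), a scale that makes changes of weakly expressed genes look smaller. A gene was fitted when 3 or more libraries reached 1, which held for 11110 genes and all 10 members. Genes listed at 0 throughout a condition (68 in expansion, 27 at day 4) were not tested where that condition is used. Group means were estimated in a single limma 3.58.1 model (R 4.3.3) with a variance trend, with Benjamini-Hochberg adjustment of p-values over all genes. A call against FL needed both clones past 0.05 in the same direction, and both clones share the FL libraries. Errors of differences are SE from the model. The code was tested on simulated data.

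No libraries were identical, and r of log values within groups was 0.992 to 0.998. Gene positions are from GENCODE release 29. Named genes are every member, the 3 genes of each list with the largest difference among those called in both clones in a condition, the 3 genes most like EPOR, KIT or RHEX, and markers. Members and lists were chosen with earlier results of these data known. Alternatives were pseudocounts of 0.1 and 5, other filters, 2 scalings, a replicate block, a variance without a trend, models of the compared libraries alone, and leaving out each library.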

Additional observations from a re-analysis of the deposited data

Results flagged for a closer look

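The difference between the GATA1s clones and FL itself differed between day 4 and expansion for 9 of the 10 genes, by limma's test of the interaction. On the log2 scale the difference at day 4 minus that in expansion was 2.82 for RHEX (adjusted p = 3.00e-07), 1.87 for KIT (1.19e-09) and 0.67 for STAT5A (1.18e-06). It was -1.53 for EPOR (5.98e-08), -1.07 for JAK2 (8.31e-07), -0.91 for BCL2L1 (3.45e-08), -0.70 for CISH (1.25e-03), -0.53 for STAT5B (1.98e-04) and -0.35 for PIM1 (0.0349). Of all genes tested 65.1% also passed this test, so it does not set the 10 genes apart. RHEX was below 1 in every day-4 library, so its value rests mainly on its difference of -3.09 in expansion, beside -0.28 at day 4.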

How the results depend on the processing

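Of 137 recomputed counts of called members, 136 stayed within 1.5 times the reported count. The exception was the comparison between the clones in expansion with median-of-ratios scaling, where 4 genes were called, against 7. Leaving out 1 library gave 2 to 3 called genes in both clones in expansion, 8 at day 4, 8 to 9 for the interaction, 6 to 8 between the clones in expansion and 2 at day 4, and for day 4 against expansion 10 in 1KI9, 8 to 10 in 1D5 and 9 to 10 in FL. Of 1370 recomputed log2 differences of single genes 1308 kept direction and call, 27 lost the call, 13 gained it and 22 changed sign. With median-of-ratios scaling the values that changed sign were, for the clones against FL, -0.016 for STAT5B in expansion and -0.087 for SOCS2 at day 4. They were -0.12 for the interaction of SOCS2, -0.026 for SOCS2 in expansion and -0.036 for EPOR at day 4 between the clones, and 0.33 for STAT5A in FL at day 4 against expansion. With libraries rescaled to the same sum they were 0.031 for STAT5B, 0.040 for PIM1 and 0.019 for RHEX between the clones at day 4. With a library left out, KIT against FL in expansion was -0.15 to 0.10. Between the clones RHEX was -0.18 to 0.037 in expansion, and at day 4 EPOR was -0.030 to 0.057, KIT -0.017 to 0.12 and RHEX -0.054 to 0.038. Of these sign changes STAT5A passed the threshold and the others did not. Without 1KI9 day-4 replicate 3, 1282 genes differed between the clones at day 4, against 2123. The cause of these changes was not tested.

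The deviations of same-numbered replicates from their group means had r above 0.1 in 6 of 18 pairs within a condition. Over all 18 pairs r was -0.15 to 0.43, so the numbers were not taken as pairs. With the replicate block the numbers of members called were as reported, 2 in expansion, 8 at day 4 and 9 for the interaction, and 7321 genes were called at day 4, against 7255. Depth is unknown.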
